A study of Rattus norvegicus with 4 samples.

Results

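The regions described here are binding sites of Olig2 whose acetylation was called in 1 condition only. They are vehicle Olig2 peaks that overlapped, by 1 bp or more, a peak of either the vehicle or the lysolecithin H3K27Ac list and no peak of the other. Of 4965 vehicle Olig2 peaks, 478 were chosen from the peak lists in this way, 9.63% of the list (95% interval 8.82 to 10.5). In 251 of them (5.06%) the acetylation was called after lysolecithin only, and these are named LPC-only acetylated sites below. In 227 (4.57%) it was called in vehicle only, and these are named vehicle-only acetylated sites. The remaining Olig2 peaks comprised 2728 acetylated in both conditions and 1759 acetylated in neither. Since the H3K27Ac lists chose the members, every statement on their H3K27Ac peaks describes that choice and carries no test.

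Olig2 is a basic helix-loop-helix transcription factor that binds E-box motifs in DNA and is needed to form oligodendrocytes, the glial cells that wrap axons of the central nervous system in myelin. It occupies enhancers and promoters from the precursor stage onward and works there with chromatin remodellers. H3K27Ac is acetylation of lysine 27 on histone H3, laid down by the acetyltransferases p300 and CBP at active enhancers and promoters and removed by histone deacetylases. A transcription factor can be bound where the mark is absent, so the mark separates bound sites that look active from bound sites that do not.

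The series held 4 chromatin immunoprecipitation sequencing (ChIP-seq) libraries from cultured rat brain oligodendrocytes, 1 for each antibody in each condition. All cells had been grown from mixed glia through isolated precursors and differentiated with ciliary neurotrophic factor (10 ng/ml) and the thyroid hormone T3 (15 nM). The treated cells received lysophosphatidylcholine (lysolecithin, LPC, a lipid used to strip myelin) for 6 h at a dose the labels give as 12.5 mM, and the others received vehicle. The sources used here do not state strain, age, genotype or the number of cultures, and the labelled cell type was not checked against marker genes because no gene positions were used. The lists give positions without scores or read counts, so the depth behind a peak is unknown, and sites that fell slightly short of the threshold look the same as sites without signal. The LPC H3K27Ac list covered 1.21 times as many bases as the vehicle list, from nearly the same number of peaks (38721 and 38902). With a single library per antibody and condition no p-value was computed, and the exact binomial (Clopper-Pearson) and Newcombe 95% intervals given cover counting error only.

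Sites that were acetylated in LPC only and in vehicle only were nearly equal in number, with a ratio of 1.11. LPC-only sites made up 52.5% of the members (47.9 to 57.1). In the whole H3K27Ac lists, by contrast, 9803 LPC peaks (25.3%) had no vehicle counterpart and 5717 vehicle peaks (14.7%) had no LPC counterpart, a ratio of 1.71. These are counts of different things, Olig2 peaks and H3K27Ac peaks, so the ratios are set side by side without a comparison. The balance depended on the lists: when the LPC H3K27Ac list was limited to its longest peaks until it covered no more bases than the vehicle list, 104 LPC-only and 518 vehicle-only sites resulted. That limit leaves 24055 LPC peaks, each at least 675 bp long, against 38902 vehicle peaks of any length. Since the LPC list alone was cut, LPC-only sites could only become fewer and vehicle-only sites only more numerous. The direction of this shift was therefore fixed in advance. When the Olig2 midpoint had to lie in an H3K27Ac peak, the counts were 489 and 269.

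Members were found on all 21 chromosomes that carried Olig2 peaks. They made up between 5.14% of the Olig2 peaks on chromosome 11 and 13.5% of those on chromosome 17. LPC-only sites outnumbered vehicle-only sites on 11 chromosomes, were fewer on 9 and equalled them on 1. The widest gaps were on chromosome 18, with 16 LPC-only and 5 vehicle-only sites, and on chromosome 3, with 19 and 10. LPC-only sites were 76.2% (52.8 to 91.8) and 65.5% (45.7 to 82.1) of the members there. Chromosomes 5 and 1 leaned the other way, with 14 and 21 sites on chromosome 5 and 30 and 36 on chromosome 1. There the shares were 40% (23.9 to 57.9) and 45.5% (33.1 to 58.2). The intervals of chromosomes 3, 5 and 1 include the 52.5% of all members, and these chromosomes were picked as extremes of the 21. The X chromosome held 3 LPC-only sites and 1 vehicle-only site among 47 Olig2 peaks.

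**Figure D1:**
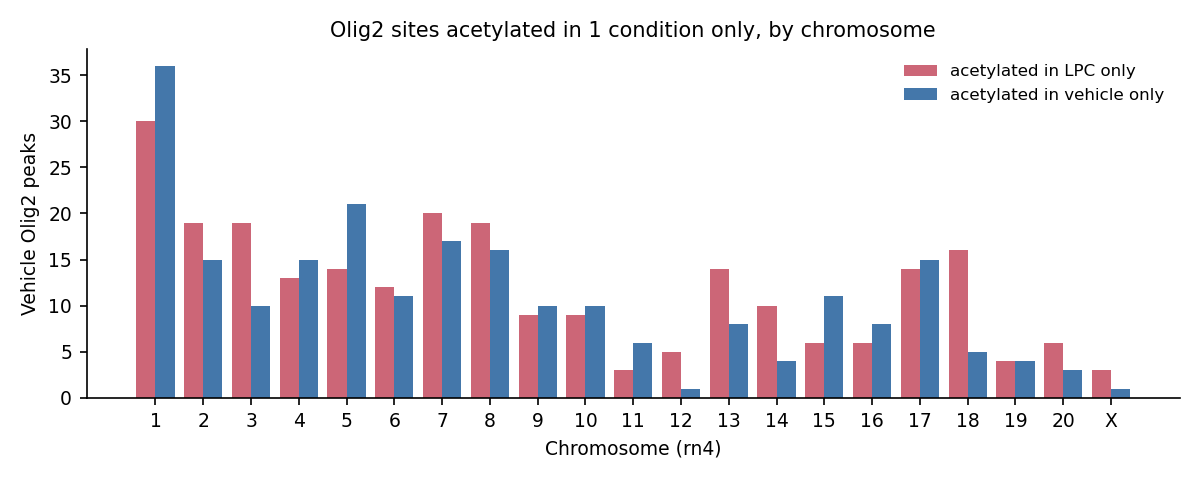
Number of vehicle Olig2 peaks (y axis) on each rn4 chromosome (x axis) that were acetylated in LPC only (red bars) or in vehicle only (blue bars). Neither direction is limited to a few chromosomes: chromosome 18 holds 16 and 5 sites, chromosome 5 holds 14 and 21.

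The acetylation that decided membership was short compared with that at sites acetylated in both conditions. At LPC-only sites a median of 535 bp of the Olig2 peak was acetylated (interval of the median 490 to 561 bp, quartiles 409 and 750 bp). At vehicle-only sites the median was 456 bp (430 to 486, quartiles 371 and 602). As a share of the Olig2 peak these medians were 52.5% and 46.1%. Olig2 peaks acetylated in both conditions were covered almost completely, by a median of 91.9% in vehicle and 99.0% in LPC.

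The H3K27Ac peaks at the members were small ones of their lists. The 278 LPC peaks at LPC-only sites had a median length of 613 bp, at percentile 31.5 of the LPC list. The 244 vehicle peaks at vehicle-only sites had a median of 506 bp, at percentile 27.5 of the vehicle list. Being short is common to condition-only H3K27Ac: all LPC-only H3K27Ac peaks had a median of 531 bp and all vehicle-only ones 478 bp, both below the medians at the members. The longest at the members measured 3229 bp and 3802 bp. A single H3K27Ac peak lay at 224 of the 251 LPC-only sites and at 210 of the 227 vehicle-only sites, and 2 peaks lay at the other 27 and 17. Almost all of this acetylation was absent from the other list along its whole length, at 244 LPC-only sites (97.2%) and 224 vehicle-only sites (98.7%). At the remaining 7 and 3 sites the H3K27Ac peak reached the Olig2 peak from ground that was acetylated in both conditions.

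The short H3K27Ac peaks often left the Olig2 midpoint uncovered. The midpoint was acetylated at 161 LPC-only sites (64.1%, 57.9 to 70.1) and at 116 vehicle-only sites (51.1%, 44.4 to 57.8). At sites acetylated in both conditions it was covered in 81.6% in vehicle and 88.0% in LPC. H3K27Ac covered the whole Olig2 peak at 10 LPC-only and 4 vehicle-only sites. Coverage fell off quickly: at 1 kb to the right of the midpoint 6.77% of LPC-only sites were under an LPC peak and 3.08% of vehicle-only sites under a vehicle peak, against 45.7% and 41.6% of sites acetylated in both. Profiles of the vehicle-only sites dipped at the midpoint, from 55.1% at 100 bp to its left and 59.5% at 100 bp to its right to 51.1%. Sites acetylated in both dipped too, in vehicle from 86.1% and 86.8% at 300 bp to either side to 81.6% at the midpoint.

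**Figure D2:**
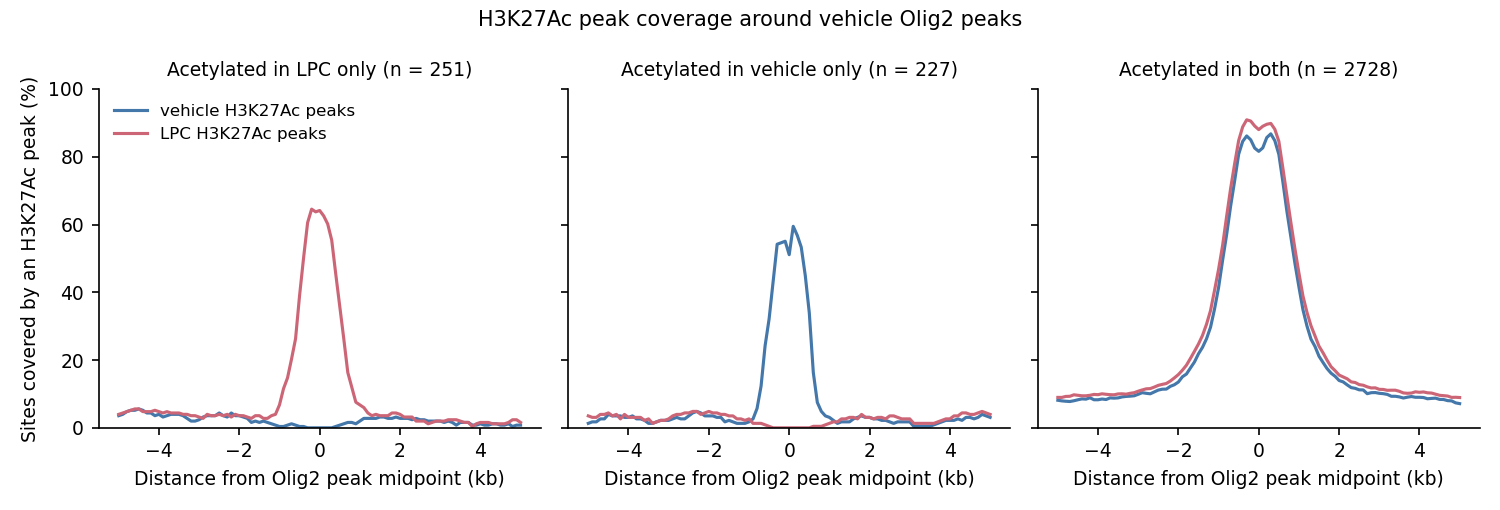
Share of sites under an H3K27Ac peak (y axis, %) by distance from the vehicle Olig2 midpoint (x axis, kb) for sites acetylated in LPC only, in vehicle only and in both, with vehicle peaks in blue and LPC peaks in red. At the members the mark is a narrow bump that reaches 64.1% and 51.1% at the midpoint, and the other condition is near 0 there because the choice of sites requires it.

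Olig2 peaks of both member groups were alike in length. The median was 1012 bp at LPC-only sites (979 to 1041, range 483 to 2269) and 1001 bp at vehicle-only sites (954 to 1040, range 515 to 2087). Both lay between sites acetylated in neither (908 bp, 897 to 920) and sites acetylated in both (1209 bp, 1190 to 1224).

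The LPC-only sites with most acetylation that also kept an Olig2 peak after LPC were led by a site on chr19:41617985-41619592 on build rn4. An LPC H3K27Ac peak of 1864 bp covered 1499 of its 1608 bp, while the nearest vehicle H3K27Ac peak began 281 bp away. The LPC Olig2 peak there spanned 1873 bp. Next was a site on chr1:84592012-84593442 that was covered over its full 1431 bp by an LPC peak of 1937 bp. That site stood nearly alone, with 1 vehicle and 2 LPC H3K27Ac peaks within 100 kb and the nearest vehicle peak 42.7 kb off. The others were on chr1:38434661-38436343 (1251 bp acetylated), chr17:21248879-21250373 (1227 bp) and chr1:236314756-236316265 (1214 bp). The chromosome 19 site counts as acetylated in both conditions when a peak within 1 kb is enough. The site on chr1:38434661-38436343 stayed in its class under 8 of 10 alternative settings and dropped out where short H3K27Ac peaks were removed.

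Among LPC-only sites without an LPC Olig2 peak, the most acetylated lay on chr4:64796449-64797656. All of its 1208 bp were under an LPC H3K27Ac peak, and the nearest vehicle peak was 4421 bp away. The Olig2 peak of this site was missing from the LPC list although H3K27Ac appeared over it. A second Olig2 peak to its left, from -6411 to -5096 bp relative to the midpoint, was called in both conditions and lay on acetylation of both. The other 4 were on chr13:12828122-12830185 (1160 bp acetylated), chr10:53093389-53094526 (all 1138 bp), chr9:40737490-40738811 (1078 bp) and chr2:192036486-192037459 (946 bp). The chromosome 10 site was 99.4 kb from vehicle acetylation. The chromosome 2 site stayed in its class under 7 of 10 alternative settings and dropped out where short H3K27Ac peaks were removed.

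Vehicle-only sites that kept Olig2 were led by chr14:4477608-4479642. A vehicle H3K27Ac peak covered 1518 of its 2035 bp, and an LPC H3K27Ac peak ended 174 bp short of the site. The Olig2 peak there measured 2141 bp in LPC, so the Olig2 call stayed while the acetylation call over it was absent. On chr8:26754794-26756275 a vehicle peak of 3802 bp covered all 1482 bp, with LPC acetylation 73 bp away. The next were on chr16:303406-304947 (1152 bp acetylated), chr1:175676752-175677971 (1141 bp) and chr1:181526618-181527716 (all 1099 bp). The chromosome 14 and chromosome 8 sites count as acetylated in both under the 1 kb rule.

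Vehicle-only sites without an LPC Olig2 peak, which thus had neither call in the LPC lists, numbered 83. Of these, the one with most vehicle acetylation lay on chr2:196461924-196463618, with 1234 of its 1695 bp acetylated in vehicle and LPC acetylation 525 bp away. It was followed by chr1:20440891-20442216 (1115 bp), chr10:82074097-82075158 (1031 bp), chr11:58729022-58730236 (1000 bp) and chr18:53012784-53013902 (937 bp). The chromosome 11 site sat in a dense neighbourhood of 36 vehicle and 31 LPC H3K27Ac peaks within 100 kb, the nearest LPC peak 390 bp away. The chromosome 2 and chromosome 11 sites count as acetylated in both under the 1 kb rule.

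**Figure D3:**
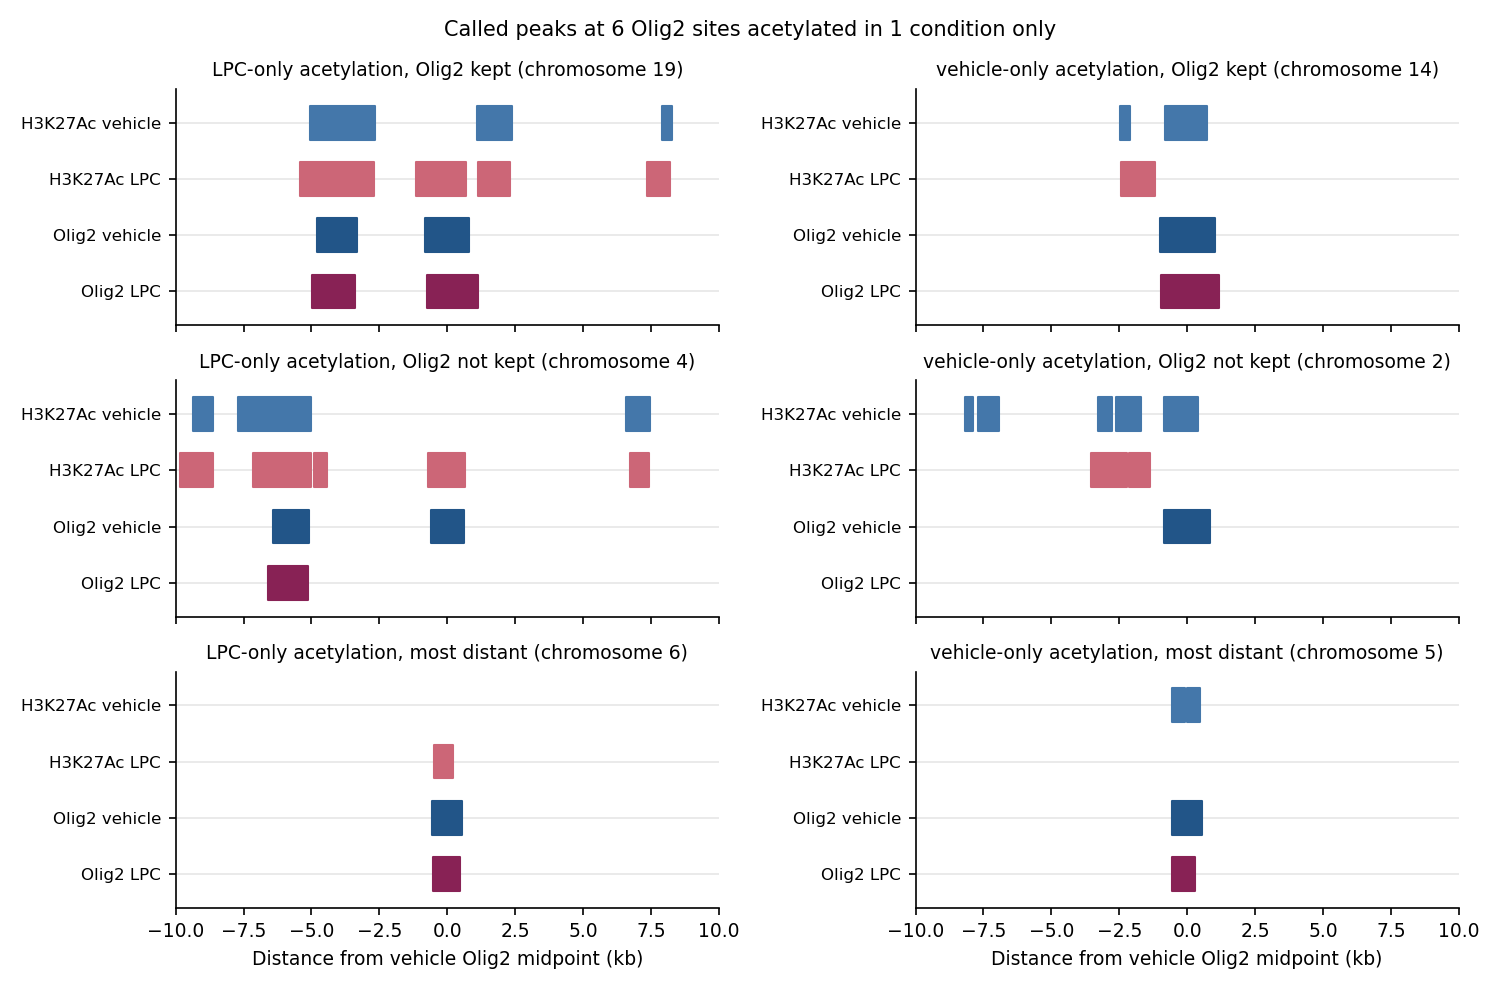
Called peaks of the 4 lists (rows) within 10 kb of the vehicle Olig2 midpoint (x axis, kb) at the most acetylated site of each of 4 classes and at the most distant site of each direction. H3K27Ac is drawn over the central Olig2 peak in 1 of the 2 H3K27Ac rows, with an LPC Olig2 peak at 4 of the 6 sites.

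Most members were not beside acetylation of the other condition. The nearest vehicle H3K27Ac peak was a median of 22.1 kb from LPC-only sites (18.0 to 27.8), and the nearest LPC peak a median of 20.3 kb from vehicle-only sites (16.9 to 27.2). Sites acetylated in neither condition were farther from the mark, with medians of 41.3 kb to vehicle peaks and 39.2 kb to LPC peaks. The other condition's acetylation was within 1 kb at 17 LPC-only sites (6.77%, 3.99 to 10.6) and 17 vehicle-only sites (7.49%, 4.42 to 11.7). It was more than 100 kb away at 47 (18.7%, 14.1 to 24.1) and 36 (15.9%, 11.4 to 21.3). Both directions therefore included small peaks of H3K27Ac in long stretches without H3K27Ac peaks of the other condition.

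The most distant LPC-only site lay on chr6:45731661-45732768, 587 kb from vehicle acetylation, with 700 bp acetylated and Olig2 peaks in both conditions. It was followed by a pair on chromosome 3, chr3:168524431-168525475 and chr3:168558830-168560508, which were 519 kb and 484 kb from vehicle acetylation. Olig2 was kept at the first of the pair and not at the second, and 3 LPC H3K27Ac peaks but no vehicle peak lay within 100 kb of either. Next were chr18:7316507-7317529 (466 kb) and chr13:34822415-34823188 (391 kb), both with Olig2 in LPC. Among vehicle-only sites the most distant was on chr5:95297103-95298184, 674 kb from LPC acetylation, with 939 of 1082 bp acetylated by 2 vehicle peaks. Next came chr9:31283901-31284570 (623 kb), chr10:79587957-79589128 (547 kb), chr9:69709443-69710534 (487 kb) and chr7:21857293-21858233 (396 kb). Of these 5 vehicle-only sites, the first on chromosome 9 was without an LPC Olig2 peak. Of the 10 distant sites, the one on chromosome 18 stayed in its class under all 10 alternative settings. The others dropped out of it under between 2 and 5 of them, mostly when short H3K27Ac peaks were removed.

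**Figure D4:**
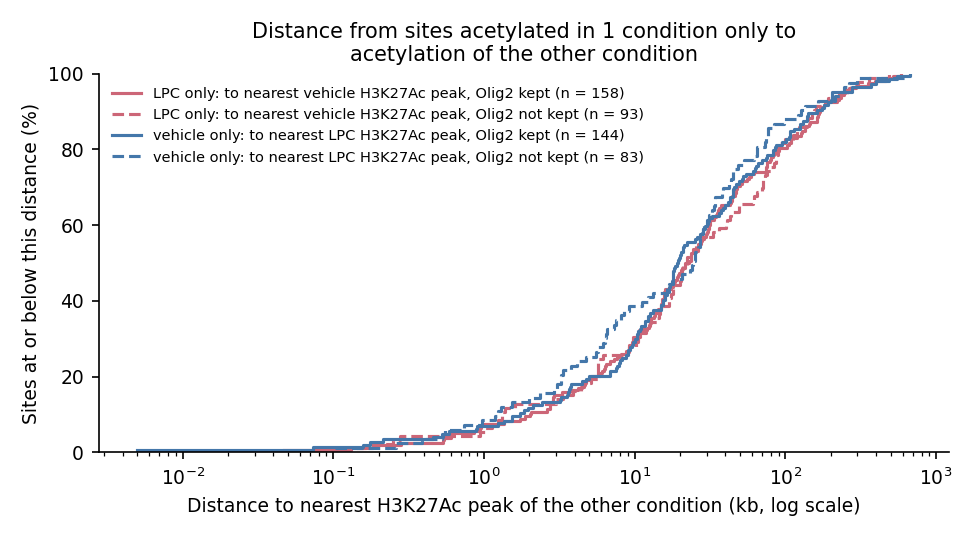
Cumulative share of members (y axis, %) by distance to the nearest H3K27Ac peak of the condition in which they were not acetylated (x axis, kb, log scale), for each direction with Olig2 kept (solid) or not kept (dashed). The 4 lines run close together, with medians between 19.2 and 24.4 kb.

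Around both member groups, LPC peaks covered more bases on average than vehicle peaks. H3K27Ac peaks that lay within 10 kb of the Olig2 peak without touching it spanned on average 517 bp (vehicle) and 599 bp (LPC) of the surroundings of LPC-only sites, a ratio of 1.16. At vehicle-only sites the means were 449 bp and 541 bp, a ratio of 1.20. The same ratio was 1.08 at sites acetylated in both, 1.22 at sites acetylated in neither and 1.21 for the whole lists. At 157 LPC-only sites (62.5%) and 143 vehicle-only sites (63.0%) these flanks held no H3K27Ac peak in either list. That share was 35.7% at sites acetylated in both and 76.2% at sites acetylated in neither. Among sites whose flanks differed, LPC covered more bases at 68 LPC-only sites and fewer at 26 (72.3% higher, 62.2 to 81.1). At vehicle-only sites these counts were 53 and 31 (63.1%, 51.9 to 73.4), and at sites acetylated in both the share was 60.5%. Peaks that touch the Olig2 peak were left out, which at members removes peaks of a single condition.

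Olig2 peaks of the members were present in the LPC Olig2 list about as often as other Olig2 peaks, whichever way acetylation differed. A vehicle Olig2 peak was counted as kept when it overlapped an LPC Olig2 peak by 1 bp or more, which 64.0% of all vehicle Olig2 peaks did. The LPC Olig2 list was shorter, with 3229 peaks against 4965 in vehicle, which limits how many vehicle peaks can be kept. At LPC-only acetylated sites 158 of 251 were kept (62.9%, 56.6 to 68.9), and at vehicle-only sites 144 of 227 (63.4%, 56.8 to 69.7). The difference, LPC-only minus vehicle-only, was -0.488 percentage points (-9.06 to 8.14). Sites acetylated in both were kept in 65.0% and sites acetylated in neither in 62.9%. Without allowance for Olig2 peak length, LPC-only sites differed from sites acetylated in both by -2.01 points (-8.39 to 4.01). For vehicle-only sites this difference was -1.52 points (-8.20 to 4.74). The intervals are wide enough to hold a difference of several points either way. Counted the other way, LPC-only and vehicle-only sites numbered 158 to 144 among kept Olig2 peaks (ratio 1.10) and 93 to 83 among those not kept (1.12).

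Longer Olig2 peaks were kept more often among the members, as in the list as a whole. In the shortest of 5 equal length classes (393 to 847 bp), 53.2% of LPC-only and 52.5% of vehicle-only sites were kept. In the longest class (1403 to 5217 bp) the shares were 71.4% of 28 and 84.2% of 19. The difference between directions had an interval that included 0 in every length class. With both groups weighted to the lengths of all members, 62.8% and 64.0% were kept, a difference of -1.22 points. With the same weights, sites acetylated in both were kept in 60.3% and sites acetylated in neither in 66.2%. These 2 classes thus changed order from the unweighted 65.0% and 62.9%, and both member groups then lay above sites acetylated in both. No intervals were computed for the weighted shares.

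The difference in Olig2 retention depended on how acetylation was called. When 50% of the Olig2 peak had to be acetylated, 208 of 322 LPC-only sites (64.6%) and 104 of 202 vehicle-only sites (51.5%, 44.4 to 58.6) were kept, a difference of 13.1 points (4.45 to 21.6). With the Olig2 midpoint as the site the difference was 7.89 points (0.725 to 15.1). With the shorter 50% of each H3K27Ac list removed it was 9.82 points (1.66 to 17.9), and with lists of equal covered length 6.69 points (-3.69 to 16.1). These rules choose partly different sites: of the members, 138 LPC-only and 95 vehicle-only sites met the 50% rule, and 184 and 107 further sites came from those acetylated in both. Under the 50% rule the difference was 11.1 points (-1.82 to 23.6) in these members and 14.5 points (2.89 to 25.9) in the further sites. Under the midpoint rule, members were kept in 61.5% and 61.2%. The further sites under that rule were kept in 68.6% and 56.2%, a difference of 12.4 points (3.16 to 21.6). The gap between directions was thus larger in the further sites, which are acetylated in both by the 1 bp rule. In the members it was nearly absent under the midpoint rule, and under the 50% rule its interval held differences of either sign.

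**Figure D5:**
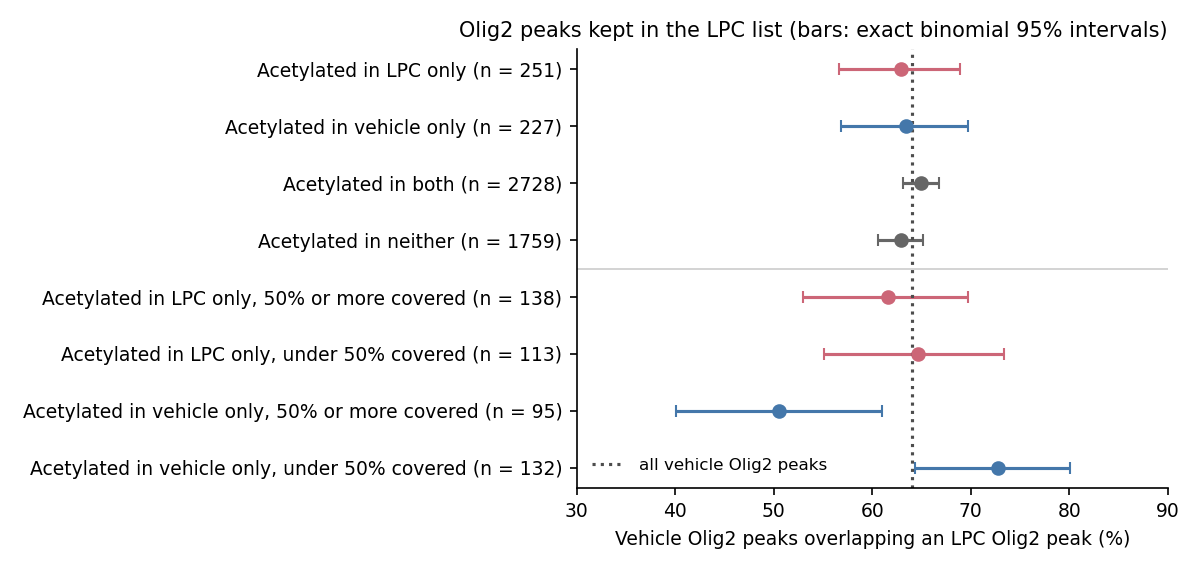
Share of vehicle Olig2 peaks that overlapped an LPC Olig2 peak (x axis, %) for the 4 acetylation classes and for members divided by the acetylated share of the Olig2 peak, with exact binomial 95% intervals as bars and the share over all vehicle Olig2 peaks as a dotted line. Without weighting for Olig2 peak length, the 4 classes lie between 62.9% and 65.0%, while vehicle-only sites divide into 50.5% and 72.7%.

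Vehicle-only sites whose Olig2 peak was largely acetylated were kept less often than those with partial acetylation. This division was chosen after the values had been seen. The 95 vehicle-only and 138 LPC-only sites on its upper side are the members that met the 50% rule above, so these results share sites. Of the 95 vehicle-only sites with 50% or more of the Olig2 peak acetylated, 48 were kept (50.5%, 40.1 to 60.9). Of the 132 with less, 96 were kept (72.7%, 64.3 to 80.1), a difference of -22.2 points (-34.2 to -9.42). At LPC-only sites the same division gave 85 of 138 (61.6%) and 73 of 113 (64.6%), a difference of -3.01 points (-14.7 to 8.96). The difference between these differences was -19.2 points (-36.2 to -1.87).

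Olig2 peak length moved with this division, at a median of 954 bp for vehicle-only sites with 50% or more acetylated and 1024 bp for the rest. Within vehicle-only sites shorter than the median of the Olig2 list, 44.1% of 59 and 67.1% of 76 were kept, a difference of -23.0 points (-38.3 to -6.17). Among longer ones the shares were 61.1% of 36 and 80.4% of 56, a difference of -19.2 points (-37.5 to -0.596). Dividing vehicle-only sites by acetylated bases instead of the share gave 61.9% above the median and 64.9% at or below it, a difference of -2.97 points (-15.3 to 9.44). The step was thus seen with the share of the Olig2 peak covered, a measure that also depends on Olig2 peak length. Sites acetylated in both, divided by their vehicle coverage in the same way, were kept in 64.9% and 65.8%, a difference of -0.927 points (-6.41 to 4.91). Divided by their LPC coverage, they were kept in 65.5% and 58.5%, a difference of 7.05 points (0.519 to 13.8). This division uses the coverage of the other condition, so its sign cannot be set against that of the vehicle-only division. Dividing LPC-only sites by acetylated bases gave 68.8% above the median and 57.1% at or below it, a difference of 11.7 points (-0.283 to 23.1). These divisions were not adjusted for their number.

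Across all 3206 Olig2 sites acetylated in at least 1 condition, the share kept was lowest where LPC coverage was lower by 50 points or more of the Olig2 peak. There 61 of 121 sites were kept (50.4%, 41.2 to 59.6). Of the 121, 95 are the same vehicle-only sites with 50% or more acetylated that were divided off above, so this value largely repeats theirs. Where LPC coverage was lower by 20 to 50 points the share was 64.0%, with 124 members among 250 sites. Within 20 points the share was 65.8%, with 18 members among 2232 sites. Where LPC coverage was higher by 20 to 50 points it was 65.2%, with 103 members among 391 sites. Where higher by 50 points or more, it was 60.8% (53.9 to 67.5), with 138 members among 212 sites. In these groups, which mix members with other sites, retention thus did not climb steadily with the change in acetylation. Median Olig2 length was 989 bp and 1010.5 bp in the outermost groups and 1243 bp in the middle one.

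Where Olig2 was kept, its LPC peak sat on nearly the same position. Each of the 158 kept LPC-only and 144 kept vehicle-only sites had a single LPC Olig2 partner. The LPC midpoint lay a median of 55 bp from the vehicle midpoint at LPC-only sites (41 to 66) and 48.2 bp at vehicle-only sites (38 to 63). The median ratio of Olig2 peak length, LPC over vehicle, was 0.937 (0.909 to 0.981) and 0.926 (0.894 to 0.945), close to the 0.935 at sites acetylated in both. The LPC Olig2 peak was the longer one at 55 LPC-only sites (34.8%) and 36 vehicle-only sites (25%), on either side of the 29.7% at sites acetylated in both and in neither. By their own coordinates, 155 of the 158 LPC Olig2 peaks were again acetylated in LPC only and 143 of the 144 in vehicle only. That was nearly fixed in advance, since these peaks overlap the members and were classed with the same H3K27Ac lists. The LPC Olig2 list, put through the same rule, gave 161 LPC-only and 145 vehicle-only sites among its 3229 peaks, and the 176 members without an LPC Olig2 peak cannot be among them.

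Members lay farther from other Olig2 peaks than sites acetylated in both conditions did. The nearest other vehicle Olig2 peak was a median of 159 kb from LPC-only sites (118 to 201) and 129 kb from vehicle-only sites (96.4 to 164). At sites acetylated in both it was 79.9 kb (73.4 to 84.8), and at sites acetylated in neither 140 kb (127 to 154). Another Olig2 peak lay within 12.5 kb of 15 LPC-only sites (5.98%, 3.38 to 9.67), 25 vehicle-only sites (11.0%, 7.26 to 15.8), 16.7% of sites acetylated in both and 7.39% of sites acetylated in neither. Over all vehicle Olig2 peaks the share was 12.6%, which lies inside the interval of the vehicle-only sites and above that of the LPC-only sites.

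At the edge of the rule, the LPC-only sites with the smallest acetylated overlap had 5 bp, 21 bp and 50 bp under an LPC peak, and the vehicle-only sites 101 bp, 114 bp and 138 bp. The closest acetylation of the other condition was 47 bp from an LPC-only site on chr5:31332908-31333459 and 5 bp from a vehicle-only site on chr11:51443527-51444561. Just outside, Olig2 peaks acetylated in both had as little as 26 bp under a vehicle peak and 25 bp under an LPC peak. Olig2 peaks acetylated in neither came as close as 69 bp to an LPC peak and 4 bp to a vehicle peak. Few sites were this near the edge: 4 members had under 100 bp acetylated, and 6 and 3 of the 2728 sites acetylated in both had under 100 bp in the vehicle and the LPC list.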

How the data were processed

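For each library the authors deposited a list of peak positions in bp (3 columns, no score or count). Per the submitters' processing notes, MACS 1.4.2 and the rat build rn4 were used. Aligner, peak threshold, control library and pooling: not given in the sources used here. Peak lists of single libraries were intersected with pandas 2.3.3, numpy 2.4.6 and SciPy 1.17.1 under Python 3.11.15 (figures: matplotlib 3.10.9) at a minimum overlap of 1 bp. Counts of LPC-only, vehicle-only and kept sites equalled those of bedtools 2.31.1, and the code was tested on simulated lists with known classes. Shares carry Clopper-Pearson intervals, differences of shares Newcombe intervals from Wilson limits, medians order-statistic intervals, all at 95%, and the difference of differences combines Newcombe limits. Intervals treat peaks as independent. Starts are printed 1-based.

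Named sites are the 5 members with most acetylated bases in each of the 4 classes (direction by Olig2 kept or not) and the 5 of each direction farthest from the other condition's H3K27Ac. Members, rules and alternatives were chosen with earlier results of these data known. Genes and sequences were not analysed here, since the tables at hand describe another assembly.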

Additional observations from a re-analysis of the deposited data

How the results depend on the processing

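With 1 library per antibody and condition no replicate could be left out. No paired analysis was possible because the result comes from no test and each group holds 1 sample. Requiring 100 bp of overlap, accepting H3K27Ac within 1 kb, joining H3K27Ac peaks within 1 kb, using autosomes alone and requiring 50% of the Olig2 peak to be kept each left the counts within 1.5 times and the shares kept within their intervals. Of the 251 LPC-only and 227 vehicle-only sites, 234 and 210 stayed in their class under the 1 kb rule, 250 and 227 with joined peaks, and 63 and 55 with peaks at or above the median length.

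The counts moved by more than 1.5 times for LPC-only sites under the midpoint rule (489) and for both directions with lists of equal covered length (104 and 518). The share of vehicle-only sites kept was 51.5% when 50% of the Olig2 peak had to be acetylated, and the difference in share kept was then 13.1 points. That difference was 9.82 points with peaks at or above the median length. With both lists limited to the same number of longest peaks (19360), an alternative chosen after seeing the data, it was 10.4 points (2.21 to 18.5). That cut nearly repeats the median-length one, with 289 LPC-only sites under both and 244 against 250 vehicle-only sites. These settings change which sites are members, and beyond that the cause was not tested. Depth is unknown for all 4 lists, so a site missing from a list cannot be told apart from a site under its threshold.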

Other observations

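Seen from the H3K27Ac lists, 364 of the 9803 peaks called after LPC only carried a vehicle Olig2 peak (3.71%, 3.35 to 4.11). Of the 5717 called in vehicle only, 333 did (5.82%, 5.23 to 6.46), a difference of -2.11 points (-2.84 to -1.41). Of these, 271 and 241 lay at the sites described here and 93 and 92 at Olig2 peaks acetylated in both conditions. H3K27Ac peaks with a counterpart in the other list carried a vehicle Olig2 peak more often. Their shares were 11.4% of such LPC peaks (3290) and 11.5% of such vehicle peaks (3800). The difference between the condition-only groups had the same sign in each of 4 length classes. Among H3K27Ac peaks under 400 bp the shares were 2.50% and 4.54%, and among those of 600 bp to under 1000 bp 4.66% and 7.78%. Among those of 1000 bp or more they were 5.08% of 669 and 10.1% of 109. The reference is the vehicle Olig2 list in both directions. The LPC H3K27Ac list is also the wider one, and its part in this difference was not tested.

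Members that lay near each other did not all differ in the same direction. Within 500 kb, 110 members had another member as neighbour, and for 55 of them the nearest one was of the same direction. Within 100 kb this held for 10 of 31 members, within 50 kb for 4 of 18 and within 12.5 kb for 0 of 2. These counts are small, the members of a pair are counted from both sides, and no expected share was computed.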
